A study of Mus musculus with 4 samples.

Results

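Lipg encodes endothelial lipase, and it was described here together with 5 further lipase genes, Lpl, Lipa, Lipe, Pnpla2 and Mgll, in the immune cells of mouse melanomas. These 6 genes were taken by symbol, and all 6 were among the 12584 genes of the deposited single-cell count table. Lipg was chosen from its very large rise in monocytes and macrophages of tumours with raised IRF3 and IRF7, so its values in that contrast are given as a description and support nothing by themselves. The other lipases were added as its functional relatives.

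Lipases split stored or transported fat into fatty acids. Secreted lipases work at the cell surface on circulating lipoproteins, the acid lipase works inside lysosomes on lipid that a cell has taken up, and a chain of cytosolic enzymes empties lipid droplets one fatty acid at a time. Macrophages are known to use all of these routes, since they take up lipoproteins and dying cells and can become loaded with lipid. Endothelial lipase is a secreted phospholipase that acts mainly on high-density lipoprotein, and it is best known from endothelial cells.

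The tumours were YUMM1.7-OVA RTT, a mouse melanoma line resistant to targeted therapy that carries ovalbumin, grown in Rag2-/- mice of a B6 background, 6 to 12 weeks old by the range given for all strains. These hosts have no T or B cells of their own and keep natural killer and myeloid cells. All 4 groups received ovalbumin-specific OT-1 T cells on day 7, and CD45+ cells were isolated on day 10, 72 h later. In the CTRL group the melanoma cells carried an mCherry vector. In the IRF3/7 group they carried IRF3 and IRF7 cDNA under the SFFV promoter, as a sorted bulk population and not a clone. The COX2i group had the mCherry melanoma line and celecoxib, a COX-2 inhibitor, at 30 mg per kg by gavage every day from day 3. The COX2i + 5-AZA group had the same and also 5-azacytidine, a DNA methyltransferase inhibitor, at 1 mg per kg into the peritoneum every 3 days. Each group was 1 library made from 3 pooled tumours, so no spread between animals could be measured and no p-value is given. All intervals below are exact 95% intervals that cover counting error only.

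The 4 libraries held 34447 cells, from 6329 in IRF3/7 to 10032 in COX2i + 5-AZA, and the median cell had 3168 UMIs (unique molecules counted) in IRF3/7 against 6039.5 to 7502 in the others. Of 29259 distinct droplet barcodes, 4830 occurred in more than 1 library, as libraries marked by probe barcode can share droplets, and 0 full barcodes were shared. The check of the expressed genes followed the label: over all cells Irf7 stood at 62.1, 4964, 86.2 and 436 CPM (UMIs per 1000000 UMIs) and Irf3 at 41.6, 138, 43.2 and 42.4 CPM in CTRL, IRF3/7, COX2i and COX2i + 5-AZA, the order of libraries used throughout. In the small class that the authors named for myofibroblasts, called non-immune below, Irf7 reached 14909 CPM in IRF3/7. The myeloid make-up differed greatly, because inflammatory monocytes were 86.1% of the monocytes and macrophages of IRF3/7 and 1.22%, 1.76% and 8.68% of those of the other libraries. Levels are UMIs summed over the cells of a class and scaled to all UMIs of those cells. The assay reads pairs of probes, and neither the number of probes nor the gene's length is corrected for, so levels were compared between libraries and classes and never between genes.

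Lipg (ENSMUSG00000053846, mm10 chr18:74939322-74961263, minus strand) was read in few cells outside the IRF3/7 library. Over monocytes and macrophages, Lipg gave 9 UMIs in CTRL, 1395 in IRF3/7, 32 in COX2i and 76 in COX2i + 5-AZA. These were levels of 0.165 CPM (0.0753 to 0.313), 78.1 CPM (74.1 to 82.3), 0.512 CPM and 1.11 CPM. IRF3/7 stood far above the other 3 libraries. The log2 ratio of IRF3/7 to CTRL was 8.89 (7.96 to 10.02), a 474-fold difference, and 2 of 11793 genes had a larger one. At least 2-fold higher in this contrast were 9.16% of all genes tested and at least 2-fold lower were 32.2%, beside 2 and 0 of the 6 lipases (Lipg and Lipe were the higher ones). Nothing is read from Lipg's place here, since the contrast chose it.

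The contrasts without IRF3/7 were not used to choose Lipg, though they share the CTRL or COX2i library. COX2i stood above CTRL by a log2 ratio of 1.64 (0.54 to 2.89) and COX2i + 5-AZA by 2.75 (1.75 to 3.94), both against the same 9 UMIs in CTRL. Between COX2i + 5-AZA and COX2i the log2 ratio was 1.12 (0.50 to 1.76), or 2.17-fold. In these counts Lipg was lowest in CTRL, then COX2i, then COX2i + 5-AZA, and the counting interval of each step left out equality. Free RNA could not be told apart at these levels: with every cell thinned to 1500 UMIs, 0.116% of monocytes and macrophages of COX2i + 5-AZA had a Lipg UMI, and natural killer cells had one in 0 of 355 cells (up to 1.03%) there and 0 of 39 in COX2i. IRF3/7 against COX2i + 5-AZA, a comparison added after the data were seen, gave a log2 ratio of 6.14.

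**Figure D1:**
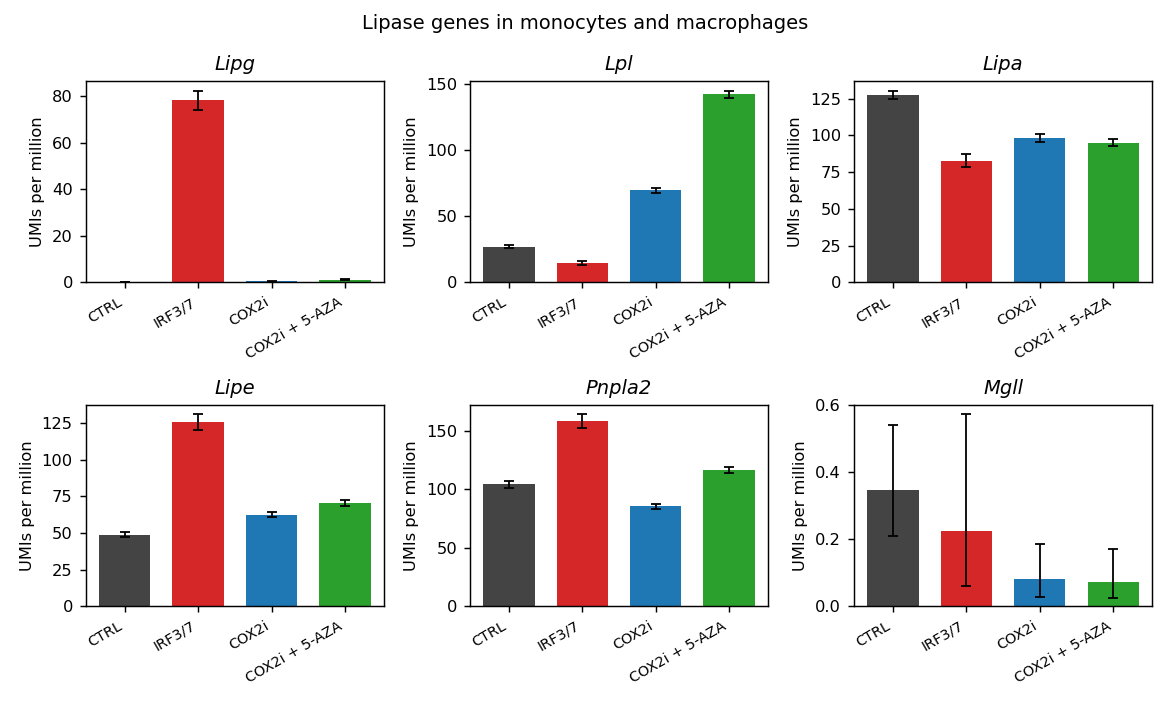
Level of each of the 6 lipase genes in monocytes and macrophages of each library, in CPM as bars from 0, with exact 95% counting intervals. Lipg sits at 78.1 in IRF3/7 and between 0.165 and 1.11 in the others, while Lpl is lowest in IRF3/7 and highest in COX2i + 5-AZA.

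The IRF3/7 signal was carried mainly by the macrophage class that the authors named TAM_H2Ab1, for a class II antigen presentation gene. In its 385 IRF3/7 cells Lipg gave 756 UMIs, or 374 CPM. The same class held 1 Lipg UMI in 19 CTRL cells, 0 in 41 COX2i cells and 3 in 419 COX2i + 5-AZA cells, the last a level of 0.691 CPM. The class was therefore present in number in COX2i + 5-AZA with almost no Lipg, and IRF3/7 stood above it by a log2 ratio of 9.08 (7.53 to 11.36), or 541-fold. TAM_H2Ab1 was 6.08% of IRF3/7 cells and held 49.3% of all Lipg UMIs of that library. The summed level of the macrophage marker list in this class was 45291, 40623, 23498 and 28998 CPM, while the neutrophil list summed to 167, 378, 76.6 and 126 CPM and the dendritic list to at most 47.4 CPM.

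Inflammatory monocytes were the other main source. They were 68.5% of IRF3/7 cells and held 41.1% of its Lipg UMIs, 630 UMIs in 4335 cells or 42.8 CPM. The other libraries held 0 UMIs in 93 CTRL cells, 1 in 130 COX2i cells (1.64 CPM) and 2 in 764 COX2i + 5-AZA cells (0.508 CPM). IRF3/7 was again the only library with more than a few molecules in this class, at least 6.9-fold above CTRL if the 0 of CTRL is set at the floor of 3 counts, and higher than COX2i + 5-AZA by a log2 ratio of 6.40 (4.54 to 9.45). In Monocyte_1, a further monocyte class, Lipg stood at 12.7 CPM on 9 UMIs in 251 IRF3/7 cells and at 0.569 CPM in 3640 COX2i + 5-AZA cells.

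Lipg was not limited to monocytes and macrophages. Conventional type 2 dendritic cells (cDC2), which present antigen on class II molecules, held 107 UMIs in 390 IRF3/7 cells (81.6 CPM), against 0 in 645 CTRL cells, 1 in 666 COX2i cells and 0 in 261 COX2i + 5-AZA cells. With the zeros set at 3 counts, IRF3/7 was at least 75.8-fold above CTRL and at least 35.7-fold above COX2i + 5-AZA. No Lipg UMI was found in cDC1 of any library (38 cells in IRF3/7, where a count of 0 allows up to 15.3 CPM). The 4 UMIs of CCR7+ dendritic cells in IRF3/7 came from 1 of 66 cells.

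In the class that the authors named Neutro, for neutrophils, Lipg was high in COX2i + 5-AZA as well as in IRF3/7. In 196 Neutro cells of COX2i + 5-AZA Lipg gave 101 UMIs, or 140 CPM, and these were 56.1% of the Lipg UMIs of that library from 1.95% of its cells. IRF3/7 Neutro cells held 16 UMIs in 49 cells (94.0 CPM), CTRL 3 UMIs in 1 of 65 cells (9.72 CPM) and COX2i 0 in 5 cells. COX2i + 5-AZA was above CTRL by a log2 ratio of 3.85 (2.26 to 6.15), or 14.4-fold. The neutrophil marker list summed to 24460, 37875, 10218 and 89640 CPM in this class and the macrophage list to 35755, 7588, 22486 and 5171 CPM. In CTRL and COX2i the macrophage list was thus the larger one, against the name, so the class is called Neutro below and its ratio to CTRL may set unlike cells side by side. The part of that difference in the Lipg ratio was not tested.

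**Figure D2:**
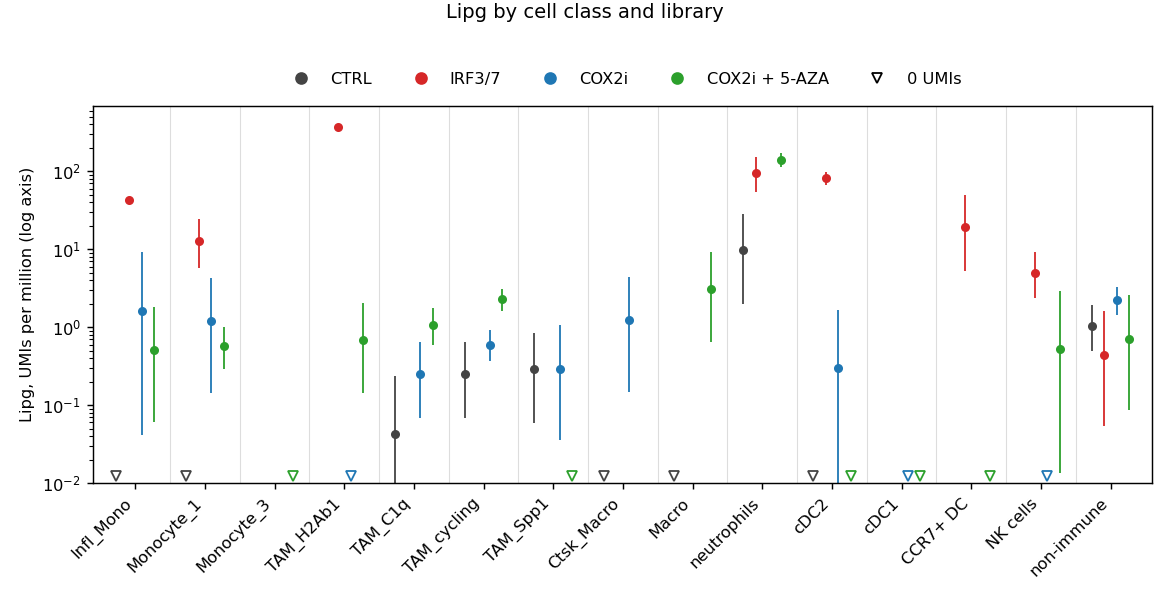
Lipg in each annotated class and library with at least 40 cells, in CPM on a log axis with exact 95% counting intervals. TAM_H2Ab1 of IRF3/7 is highest at 374, Neutro cells of COX2i + 5-AZA follow at 140, and most pools of CTRL and COX2i lie at or near 0.

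Outside TAM_H2Ab1, the larger macrophage classes of CTRL, COX2i and COX2i + 5-AZA had low Lipg, and IRF3/7 had too few cells of them to measure it. Cycling macrophages (TAM_cycling) stood at 0.254 CPM in CTRL, 0.595 CPM in COX2i and 2.27 CPM in COX2i + 5-AZA, with 0 UMIs in 20 IRF3/7 cells, which allows up to 19.6 CPM. COX2i + 5-AZA was above CTRL by a log2 ratio of 3.16 (1.69 to 5.10) and above COX2i by 1.93 (1.14 to 2.77). Complement-expressing macrophages (TAM_C1q) followed the same order, at 0.0426, 0.251 and 1.07 CPM, the first of which is 1 UMI. Spp1+ macrophages (TAM_Spp1) did not, at 0.290 CPM in CTRL, 0.293 CPM in COX2i and 0 UMIs in 857 cells of COX2i + 5-AZA. Non-immune cells stood at 1.04, 0.446, 2.22 and 0.710 CPM. Of the 40 pools of a class and a library with at least 50 cells, 11 had no Lipg UMI and 25 had 3 or fewer.

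Shares of cells with a UMI were read beside a class that shows the level of free RNA. In IRF3/7, 39.0% of TAM_H2Ab1 cells had a Lipg UMI (34.1% to 44.0%), as did 16.3% of Neutro cells, 10.8% of cDC2 and 7.1% of inflammatory monocytes. Natural killer cells, a lymphoid class that should lack the gene, gave 10 UMIs with 1.76% of 568 cells positive at a median depth of 2674.5 UMIs, close to the 3076 UMIs of inflammatory monocytes. After every cell was thinned to 1500 UMIs the shares in IRF3/7 were 23.5% in TAM_H2Ab1, 10.6% in Neutro cells, 7.22% in cDC2, 4.37% in inflammatory monocytes and 0.588% in natural killer cells. The first 4 classes stood above the natural killer level. Monocyte_1, at 0.897% (0.109% to 3.20%), did not and is read as background. Neutro cells of COX2i + 5-AZA kept 17.2%, against 1.56% in CTRL.

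Lipg was uneven from cell to cell. Among the 385 TAM_H2Ab1 cells of IRF3/7, 235 had no UMI, 52 had 1, 55 had 2 to 4 and 43 had 5 or more. Those 43 cells held 73.3% of the class's Lipg UMIs, and the highest had 36. Depth was similar, since cells with a UMI had a median of 4562.5 UMIs and cells without one 4678. In inflammatory monocytes 179 cells had 1 UMI, 104 had 2 to 4 and 25 had 5 or more. Neutro cells of COX2i + 5-AZA were more even, with 27, 25 and 1 cells in those steps and at most 6 UMIs in a cell.

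**Figure D3:**
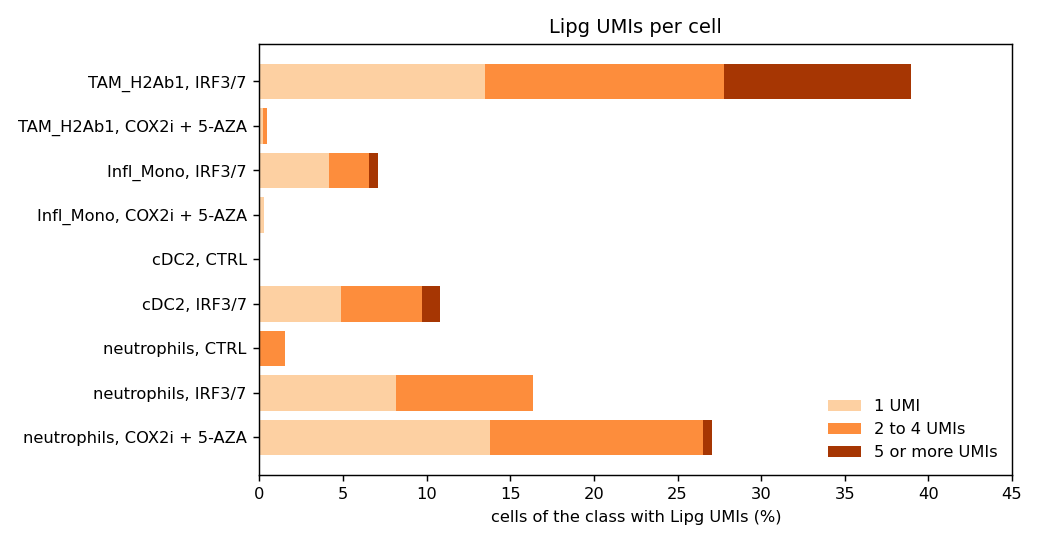
Share of cells by number of Lipg UMIs in the classes with the most Lipg, as bars from 0. TAM_H2Ab1 cells of IRF3/7 reach 36 UMIs in a cell, and 43 of the 385 have 5 or more.

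Cells with and without a Lipg UMI were set side by side within 1 class of 1 library, a division chosen after the values were seen and described with no test. In TAM_H2Ab1 of IRF3/7 the 150 positive cells had Ccl5, a chemokine for T cells, at 1047 against 352 CPM. Pparg, a lipid-sensing nuclear receptor, stood at 145 against 71.3 CPM and Fcrl5, a receptor of the Fc receptor-like family, at 439 against 202 CPM. Ctsk, the collagen-degrading protease cathepsin K, went the other way at 2.54 against 254 CPM, and Pf4, Folr2 and Vcam1 were lower by log2 ratios of -1.76, -1.36 and -1.27. Positive inflammatory monocytes had more Sparc, a matrix protein, at 73 against 11 CPM, and more Kdr and Eng, both also known from endothelium, at 127 against 33.7 and 104 against 36 CPM. They had less S100a9, a neutrophil and early monocyte gene, at a log2 ratio of -2.22. Their median depth was 3547 UMIs, against 3047 UMIs in inflammatory monocytes without a Lipg UMI.

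Endothelial cells are the textbook source of Lipg, so their markers were examined in the same cells. Of 6 genes in that list 4 were in the table, with a summed level of 28.4, 133, 15.6 and 72.9 CPM in monocytes and macrophages and 261 CPM in TAM_H2Ab1 of IRF3/7. In the latter Pecam1, which monocytes and macrophages also carry, stood at 168 CPM and Kdr, a receptor for vascular endothelial growth factor, at 92.4 CPM. Cdh5 and Vwf stood at 0.494 CPM each. In inflammatory monocytes of IRF3/7 the list summed to 113 CPM, with Cdh5 at 3.60 CPM and Vwf at 0.0679 CPM. The part of endothelial RNA in the Lipg level was not tested. B cell genes in the same pool summed to 66.7 CPM, nearly all Cd79b at 65.7 CPM, with Cd79a at 0.

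Since the IRF3/7 library held so many inflammatory monocytes, the Lipg ratio of IRF3/7 to CTRL was computed on other sets of cells. Without inflammatory monocytes the log2 ratio was 10.52, and over all cells it was 7.49. With class shares fixed at those of CTRL it was 2.54, but this uses only inflammatory monocytes, Monocyte_1 and TAM_cycling, the last with 20 IRF3/7 cells at 0 UMIs, and leaves out TAM_H2Ab1.

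Lpl (ENSMUSG00000015568, mm10 chr8:68880491-68907448, plus strand) encodes lipoprotein lipase, which releases fatty acids from triglyceride-rich lipoproteins and is a known macrophage product. In monocytes and macrophages Lpl stood at 27.1, 14.7, 69.8 and 142 CPM on 1482, 262, 4364 and 9748 UMIs. The order was therefore IRF3/7, CTRL, COX2i and COX2i + 5-AZA, which is that of Lipg except for the place of IRF3/7. COX2i was above CTRL by a log2 ratio of 1.36 (1.28 to 1.45), COX2i + 5-AZA above CTRL by 2.39 (2.31 to 2.47) and above COX2i by 1.03 (0.98 to 1.08). IRF3/7 was below CTRL by 0.89 on the log2 scale, at -0.89 (-1.08 to -0.70).

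The order of Lpl from CTRL through COX2i to COX2i + 5-AZA was seen class by class. Where both libraries had 50 cells and an Lpl UMI, COX2i was above CTRL beyond the counting interval in 6 of 6 classes (log2 1.47 to 3.40), COX2i + 5-AZA above CTRL in 7 of 7 (log2 2.09 to 4.91) and COX2i + 5-AZA above COX2i in 7 of 9. These counts include classes whose share of positive cells was not above the natural killer level given below, and the 9 include the natural killer cells themselves (log2 -0.61). TAM_C1q stood at 6.57, 41.9 and 85.3 CPM in CTRL, COX2i and COX2i + 5-AZA, and TAM_cycling at 14.5, 50.4 and 156 CPM. TAM_Spp1 moved less, at 20.0, 55.5 and 85.0 CPM. Ctsk_Macro, named for cathepsin K, had the highest Lpl of the 40 pools with at least 50 cells, at 812 CPM in COX2i, with 227 CPM in CTRL and 538 CPM in 37 cells of COX2i + 5-AZA. The class named Macro went from 44.4 CPM in CTRL to 648 CPM in COX2i + 5-AZA, a log2 ratio of 3.87 (3.26 to 4.55).

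Monocytes, taken as Infl_Mono, Monocyte_1 and Monocyte_3, had as much Lpl as macrophages in COX2i + 5-AZA. Their levels were 1.44 CPM on 1 UMI, 4.79, 50.1 and 143 CPM, beside 27.4, 78.1, 70.6 and 142 CPM in the macrophage classes. In COX2i the monocyte level was below that of macrophages, while in cells thinned to 1500 UMIs 6.36% of monocytes and 6.48% of macrophages had an Lpl UMI. In inflammatory monocytes alone Lpl stood at 0 UMIs in 93 cells, 4.68, 18.0 and 89.3 CPM. Monocyte_1 stood at 64.1 CPM in COX2i and 156 CPM in COX2i + 5-AZA, a log2 ratio of 1.28 (1.00 to 1.57).

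For IRF3/7 the direction of Lpl depended on which cells were pooled. It was below CTRL over monocytes and macrophages together and above it in the macrophage classes, at a log2 ratio of 1.51 (1.28 to 1.73). That difference rested on 439 cells, with 71 UMIs in TAM_H2Ab1, 74 in 13 Ctsk_Macro cells and 26 in 1 of 10 TAM_Spp1 cells. In TAM_H2Ab1, Lpl stood at 33.5, 35.1, 113 and 185 CPM. The CTRL value was 4 UMIs from 1 of 19 cells and the COX2i value 31 UMIs in 41 cells. IRF3/7 was below COX2i + 5-AZA in TAM_H2Ab1 by 2.40 on the log2 scale, at -2.40 (-2.77 to -2.05). This is the class in which Lipg stood 541-fold the other way.

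Natural killer cells again gave the level of free RNA, since they are not known to make Lpl. They had a UMI in 5.49% of cells in COX2i + 5-AZA (median depth 2606 UMIs) and in 6% of 50 cells in COX2i (3099 UMIs). After thinning to 1500 UMIs these were 3.38% (1.76% to 5.83%) and 2.56% (0.0649% to 13.5%, 1 of 39 cells), against 12.8% and 6.47% of monocytes and macrophages. In COX2i the pooled share and those of TAM_C1q (4.35%), TAM_Spp1 (4.15%) and TAM_cycling (6.30%) were not separated from the natural killer cells, while Ctsk_Macro, at 54.9% (46.7% to 62.9%), stood above them. In COX2i + 5-AZA, TAM_C1q at 9.20% and inflammatory monocytes at 8.91% stood above the natural killer level, whereas Neutro cells at 4.17%, Monocyte_3 at 4.04%, non-immune cells at 1.26% and cDC2 at 1.18% did not and are read as background. In IRF3/7, inflammatory monocytes at 0.494% (0.302% to 0.762%) were not separated from natural killer cells at 0.196% (up to 1.09%). TAM_H2Ab1 of IRF3/7, at 3.17% (1.65% to 5.47%), stood above them.

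**Figure D4:**
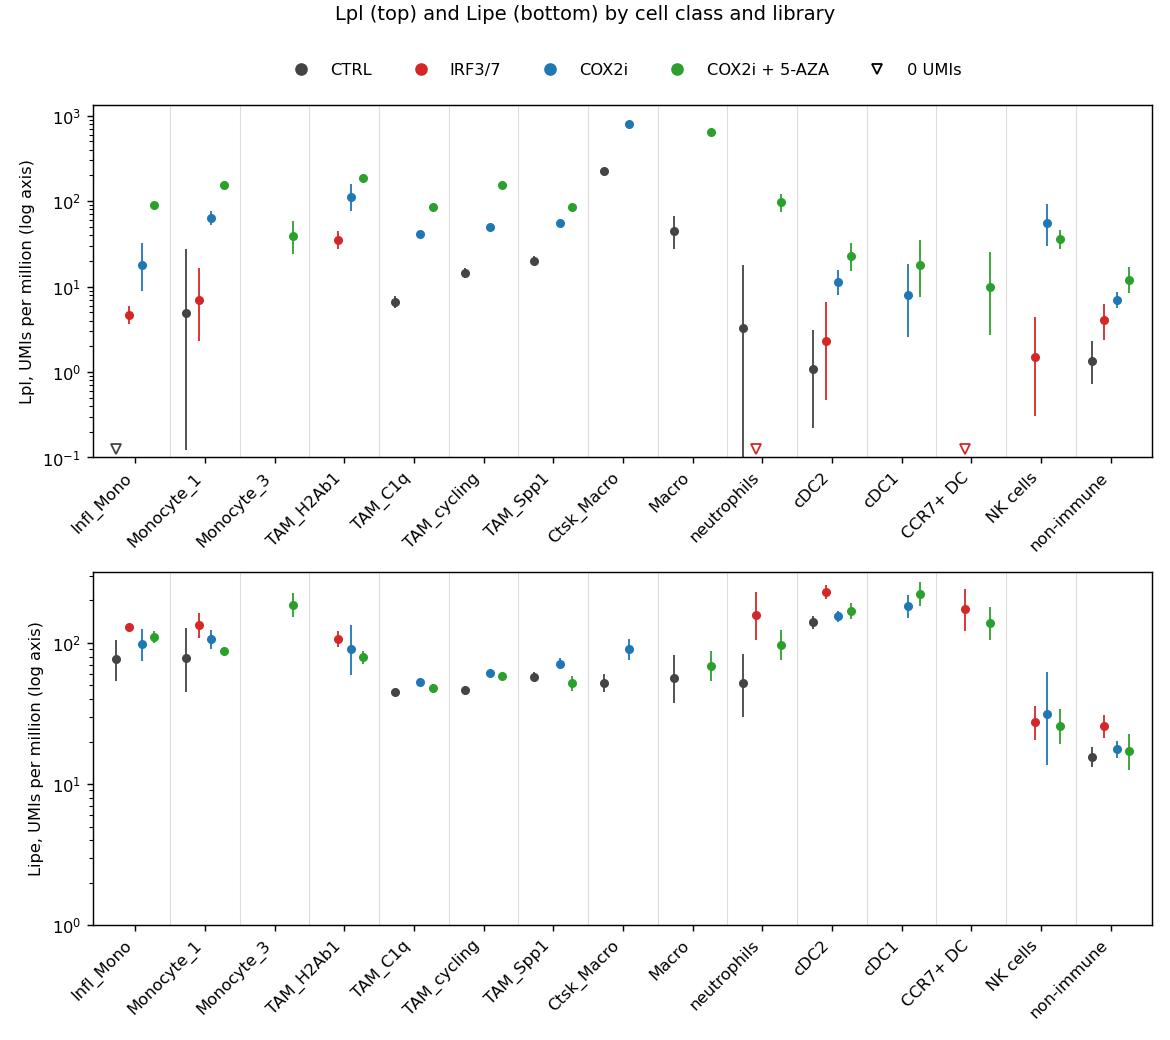
Lpl and Lipe by annotated class and library for pools of at least 40 cells, in CPM on log axes with exact 95% counting intervals. Lpl is lowest in CTRL and highest in COX2i + 5-AZA among the TAM_C1q, TAM_cycling and TAM_Spp1 pools, and Lipe is highest in dendritic cells and in monocytes.

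Lipa (ENSMUSG00000024781, mm10 chr19:34492318-34527474, minus strand) encodes lysosomal acid lipase, which frees cholesterol and fatty acids from lipoproteins that a cell has engulfed. It was read in every class, from 27.4 to 207 CPM over the 40 pools. In monocytes and macrophages Lipa stood at 127, 82.7, 98.1 and 95 CPM. CTRL was highest, and the log2 ratios to it were -0.62 (-0.71 to -0.54) for IRF3/7, -0.38 for COX2i and -0.42 for COX2i + 5-AZA, none of them as large as 2-fold.

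Within classes, the lower Lipa of IRF3/7 was seen in inflammatory monocytes and not in the pooled macrophage classes. The pooled difference from CTRL was -44.7 CPM, of which -22.2 CPM came from levels within classes and -22.5 CPM from class shares. In inflammatory monocytes Lipa stood at 157, 69.6, 91.7 and 64.2 CPM, and all 3 libraries were below CTRL, by log2 ratios of -1.17, -0.78 and -1.29. In the macrophage classes IRF3/7 was above CTRL instead, at 166 against 127 CPM (log2 0.38, 0.23 to 0.53). These pools differed in make-up, since TAM_H2Ab1 held 353 Lipa UMIs in 385 IRF3/7 cells and 20 UMIs in 19 CTRL cells. TAM_C1q stood at 157 CPM in CTRL, 116 CPM in COX2i and 104 CPM in COX2i + 5-AZA. TAM_H2Ab1 ranged from 135 to 174 CPM and Macro from 186 to 226 CPM, with intervals that overlapped between the libraries. Without inflammatory monocytes the log2 ratio of IRF3/7 to CTRL turned to 0.18. After thinning as for Lpl, 9.73% of inflammatory monocytes of IRF3/7 had a Lipa UMI (8.83% to 10.7%). Natural killer cells of IRF3/7 had one in 7.65% (5.49% to 10.3%), so the intervals overlapped. The part of free RNA in the Lipa level was not tested.

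Lipe (ENSMUSG00000003123, mm10 chr7:25379527-25398710, minus strand) encodes hormone-sensitive lipase, which cleaves diacylglycerol and cholesteryl ester in the cytosol. In monocytes and macrophages Lipe stood at 48.8, 126, 62.6 and 70.3 CPM. IRF3/7 was the highest, by a log2 ratio of 1.37 (1.28 to 1.45) to CTRL, while COX2i and COX2i + 5-AZA were above CTRL by 0.36 and 0.53. COX2i + 5-AZA was above COX2i by 0.17 (0.11 to 0.23) in the pool, but in 0 of 9 classes beyond the counting interval and below it in 2, and with class shares fixed at those of COX2i the ratio was -0.15.

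Lipe was higher in monocytes (80.8, 129, 107 and 93.4 CPM) than in macrophages (48.4, 104, 60.8 and 56.5 CPM) in each library. Within classes IRF3/7 was above CTRL by less, at log2 0.75 in inflammatory monocytes, 0.72 in cDC2 and 0.72 in non-immune cells, which were the 3 classes with 50 cells in both libraries and an interval that left out equality. With class shares fixed at those of CTRL, the log2 ratio of IRF3/7 to CTRL was 1.06. That value used only inflammatory monocytes, Monocyte_1 and TAM_cycling, the last with 15 Lipe UMIs in 20 IRF3/7 cells. The dendritic classes were among the highest, with cDC2 at 140, 230, 154 and 169 CPM and cDC1 at 164, 235, 183 and 223 CPM, and Monocyte_3 stood at 186 CPM in 280 cells of COX2i + 5-AZA. Natural killer cells stood at 25.8 to 31.4 CPM and non-immune cells at 15.6 to 25.6 CPM.

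Promoter windows from RefSeq (GRCm38.p6, 250 bases before to 50 after a start) were found for 4 of the 6 genes, 1 for Lipa, 2 for Lipe, 1 for Pnpla2 and 2 for Mgll. They were searched on both strands for GAAA, any 2 bases and GAAA again, the core of the interferon-stimulated response element that IRF factors bind, for TTCNNNGAA, the core that STAT factors bind, and for CACGTG, an E-box read by lysosomal and lipid regulators of the TFEB family. Of all 32851 windows 3.44%, 8.30% and 7.15% held them. None of the 6 windows held the first core. One Lipe window held TTCNNNGAA at position -3 and CACGTG at position -155 from its start, and 1 Mgll window held CACGTG at position -44, with no overlap between matches. The stretches around the E-boxes are shown as the only matches wholly before a start, with the motif in capitals and each read on its gene's strand. They are at chr7:25396110-25396169 (minus) for Lipe and chr6:88724341-88724400 (plus) for Mgll.
Lipe: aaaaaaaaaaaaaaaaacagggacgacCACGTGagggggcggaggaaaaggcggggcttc
Mgll: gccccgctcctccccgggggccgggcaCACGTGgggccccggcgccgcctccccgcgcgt
A match is a run of letters and not a measured site. The absence of the interferon core in these windows says nothing of other windows or of the factors.

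Pnpla2 (ENSMUSG00000025509, mm10 chr7:141455198-141460743, plus strand) encodes adipose triglyceride lipase, which takes the first fatty acid from stored triglyceride. It was the most even of the 6, between 57.5 and 228 CPM over the 40 pools. In monocytes and macrophages Pnpla2 stood at 104, 158, 85.4 and 116 CPM, with log2 ratios to CTRL of 0.60 (0.54 to 0.67), -0.29 and 0.16, and of 0.45 between COX2i + 5-AZA and COX2i. All were below 2-fold. The highest pool was Ctsk_Macro of CTRL, and Neutro cells stood at 182 to 207 CPM, the COX2i value on 6 UMIs in 5 cells. Within classes IRF3/7 stood above CTRL beyond the counting interval in 1 of 3 classes (cDC2, log2 0.30), and COX2i + 5-AZA above COX2i in 3 of 9, where no class differed by 2-fold.

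Mgll (ENSMUSG00000033174, mm10 chr6:88724412-88828360, plus strand) encodes monoacylglycerol lipase, the last enzyme of the chain, which also breaks down the endocannabinoid 2-arachidonoylglycerol. It was nearly absent, with 85 UMIs in all 34447 cells and none in 27 of the 40 pools. In monocytes and macrophages Mgll gave 19, 4, 5 and 5 UMIs. COX2i and COX2i + 5-AZA were below CTRL, by log2 ratios of -2.12 (-3.90 to -0.65) and -2.25 (-4.03 to -0.78), each resting on 5 UMIs. Non-immune cells went the other way, with 3, 1, 31 and 13 UMIs, and COX2i was above CTRL there by 3.09 (1.41 to 5.44). The 31 UMIs came from 9 of 913 cells and the 13 from 3 of 160, so few cells held them.

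Read against all genes, the lipases were not one group. In COX2i against CTRL 2 of 6 were at least 2-fold higher (Lipg and Lpl) and 1 at least 2-fold lower (Mgll), where 1.93% and 4.7% of 11905 genes were. In COX2i + 5-AZA against CTRL the same 3 genes were past 2-fold in the same directions, where 5.65% were higher and 11.3% lower. In COX2i + 5-AZA against COX2i, 2 of the 5 that could be tested were higher (Lipg and Lpl) and 0 lower, where 6.16% and 9.77% were. The median log2 ratio of the lipases was -0.01, 0.03, 0.34 and 0.45 in the 3 comparisons with CTRL (IRF3/7, COX2i, COX2i + 5-AZA) and the 1 with COX2i, beside -0.55, 0.01, -0.16 and -0.19 for all genes. The first 3 comparisons share the CTRL library.

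The scaling shifted the IRF3/7 comparison as a whole. When libraries were scaled by median-of-ratios size factors and not by total UMIs, the median gene moved by 0.51 in IRF3/7 against CTRL, and by 0.16 in COX2i + 5-AZA against either CTRL or COX2i. The higher genes among all those past 2-fold went from 22.1% to 43.6%, from 33.3% to 40.8% and from 38.6% to 49.6% in those comparisons, and from 29.2% to 29.1% in COX2i against CTRL. Under that scaling IRF3/7 stood to CTRL at a log2 ratio of -0.37 for Lpl, -0.11 for Lipa, 1.88 for Lipe and 1.11 for Pnpla2, so Pnpla2 passed 2-fold there. Lipa in COX2i + 5-AZA against COX2i turned from -0.05 to 0.12.

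Of 108 further lipid genes in 7 lists, 85 were in the table and 82 could be tested in monocytes and macrophages. In IRF3/7 against CTRL 11 were at least 2-fold higher and 19 at least 2-fold lower, beside 9.16% and 32.2% of all genes, with a median log2 ratio of -0.56, close to the -0.55 of all genes. Under size factors, which shift all genes alike, the counts were 14 higher and 10 lower, beside 1807 higher and 2337 lower of all genes. The list for lipid droplets and their lipolysis had 5 higher and 1 lower of 17. Dgat2, which makes triglyceride, stood at 48.9 against 9.84 CPM, Cideb, a droplet protein, at a log2 ratio of 1.78 and Fabp4, a fatty acid carrier, at 1.64. Lpin1, a phosphatidate phosphatase, was the lower one at -2.79.

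The lower counts of the other lists were near or below the 32.2% of all genes, so they are no result about lipid handling. Fatty acid uptake and oxidation had 0 higher and 4 lower of 12, among them the scavenger receptor Cd36 at 9.58 against 71.0 CPM, Slc27a1 at -2.63 and Acadm at -1.73. Lysosomal lipid handling had 1 higher and 4 lower of 14, with Igf2r at -2.09, Npc1 at -1.32, Smpd1 at -1.14 and Mitf at -1.13. The partners of extracellular lipases had 1 higher and 3 lower of 12: Apoc1 at 2.65, and Lrp1 at -1.91, Lmf2 at -1.16 and Sdc1, a heparan sulphate carrier, at -1.11. Other lipases had 2 higher and 3 lower of 10: Ddhd1 and Pla2g7 were higher by 1.68 and 1.05, and Liph at -4.74, on 1 UMI in IRF3/7, Lipc, or hepatic lipase, at -1.86 and Ddhd2 at -1.49 were lower. Of the regulators, the nuclear receptors Pparg and Nr1h3 were higher by 2.60 and 1.71, and Rxra and Ppargc1b lower at -2.14 and -1.48. Monoacylglycerol and endocannabinoid genes had 0 higher and 2 lower of 9, Dagla and Napepld.

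COX2i against CTRL held no higher lipid gene and 13 lower ones of 82, beside 1.93% and 4.7% of all genes, and a median log2 ratio of -0.27 beside 0.01 for all genes. The droplet genes Plin2 and Fabp5 stood at 232 against 622 CPM and at 236 against 547 CPM, and Fabp4 and G0s2, an inhibitor of Pnpla2, stood at -1.47 and -1.28. The partners of extracellular lipases had 0 higher and 4 lower of 12, among them Angptl4, an inhibitor of Lpl, at -2.16, Apoc2, its activator, at -1.19 and Apoc1 at -2.45. Pla1a, Pla2g7 and Liph among the other lipases stood at -2.38, -1.35 and -1.16. Lpl itself stood 2.57-fold higher in the same comparison.

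COX2i + 5-AZA was compared with the same COX2i library, which both comparisons share. In COX2i + 5-AZA against COX2i 11 were higher and 2 lower of 82, beside 6.16% and 9.77% of all genes, with a median of 0.06 beside -0.19 for all genes. The droplet list had 5 higher and 0 lower of 17, with Cideb at 2.26, Dgat2 at 1.67, Hilpda, another Pnpla2 inhibitor, at 1.56 and Fabp5 at 1.54. Apoc1, Angptl4, Pla1a and Pla2g7 stood at 2.62, 1.26, 2.18 and 1.84, Ddhd1 at 1.05 and Nr1h3 at 1.80, and Vldlr and Igf2r were lower at -1.71 and -1.25. Against CTRL 2 were higher (Cideb and Pla2g4a, at 1.69 and 1.12) and 8 lower, shares near or below the 5.65% and 11.3% of all genes, and under size factors 5 were higher and 6 lower, beside 786 and 1142 of all genes. Among the lower were Igf2r at -1.55, Sdc1 at -1.48, Slc27a1 at -1.43 and Apoc2 at -1.08. Lpl stayed apart, at 5.25 times its CTRL level.

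**Figure D5:**
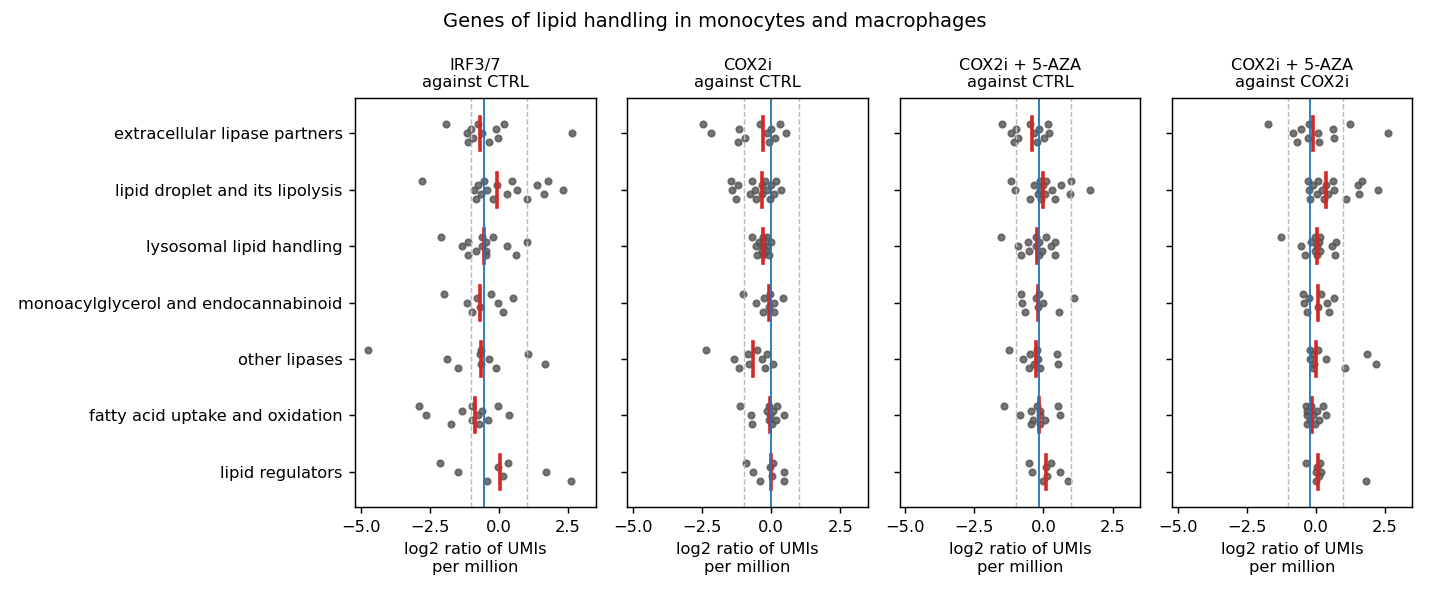
Log2 ratio of each tested gene of the 7 lipid lists in monocytes and macrophages for the 4 comparisons. The red bar is the median of a list, the blue line the median of all genes and the dashed lines 2-fold. Lipid droplet genes lie mostly below 0 in COX2i against CTRL and above 0 in COX2i + 5-AZA against COX2i.

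Over the 40 pools of a class and a library, the genes most like each lipase were ranked by Pearson's r of log2(CPM + 1) among 11474 genes. The pools share libraries and differ in depth, so r is a description. The pattern of Lipg was nearest to that of Slfn4 (r = 0.70), Misp (0.69), Klra17 (0.67), Fcrl5 (0.66) and Perm1 (0.64). Lpl was nearest to Serpinb12 (0.76), Cox5a (0.72), Ppargc1b (0.71), Ube2a (0.70) and Ccz1 (0.69), and Lipa to Ralgps2 (0.82), Nrp1 (0.80), Vamp3 (0.79) and Ap2a2 (0.79). The closest likeness was that of Lipe, to Skap2 (0.89), Dapp1, Pip4k2a, Nod2 and Irf5 (each 0.88). Pnpla2 was nearest to Rilpl2 (0.75), Inpp5k (0.73), Dop1b (0.73), Mlxip (0.72) and Sema4d (0.71). For Mgll, at 0 in most pools, Pcdh18 (0.82) led, before Col23a1, Usp13, Npnt and Postn. The lipases were not alike among themselves, with r from -0.59 for Mgll and Lipe to 0.40 for Pnpla2 and Lipg, and -0.14 for Lpl and Lipg.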

How the data were processed

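The deposited table holds UMI counts per gene and cell, which the authors made with Cell Ranger 7.1.0 from Chromium Flex libraries (paired probes ligated on fixed RNA, mm10 probe set; fixation 22 h). Per the study's methods the authors kept cells with more than 1000 detected genes (the deposited table still holds 100, 634, 78 and 389 cells at or under it, all kept here), removed ribosomal and mitochondrial genes, and annotated 17 classes, which were used as deposited. How doublets were treated is not given in the sources used here, and no doublet caller was run. Library sizes therefore count the deposited genes only.

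From these counts, UMIs were summed per library and class and given per 1000000 UMIs (CPM). Monocytes were Infl_Mono, Monocyte_1 and Monocyte_3, and macrophages TAM_C1q, TAM_Spp1, TAM_cycling, TAM_H2Ab1, Ctsk_Macro and Macro. Levels carry exact Poisson, shares exact Clopper-Pearson and ratios exact conditional 95% intervals. A level of 0 was set at 3 counts for a bound. A gene was tested, meaning compared, where both libraries together had 20 UMIs, and past 2-fold where it was at least 2-fold apart; a ratio within a class was counted where both libraries had 50 cells. With 1 library per group there was no test and no p-value. For shares, cells were also thinned to 1500 UMIs and shallower cells left out.

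Named genes are the 6 lipases, at most the 4 largest past 2-fold per lipid list and comparison, and per lipase the 5 most alike among genes with at least 200 UMIs; genes of the comparison by Lipg UMI and marker genes were picked after their values were seen. A few genes that this rule names are not reported here. The members and lists were chosen with earlier results of these data known. Python 3.11.15, numpy 2.4.6, pandas 2.3.3, scipy 1.17.1 and matplotlib 3.10.9 were used. Alternatives were size factors, cells with over 2000 genes, leaving out a class, all cells, the mean of each cell's CPM, thinning, fixed class shares and, added after seeing the data, macrophages alone.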

Additional observations from a re-analysis of the deposited data

Results flagged for a closer look

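Lipa and Pnpla2 differed in opposite directions between classes in the same comparison, each beyond its counting interval; with 1 library per group the difference between classes was not tested. Lipa in COX2i against CTRL stood at a log2 ratio of 0.61 (0.48 to 0.74) in non-immune cells and -0.78 (-1.30 to -0.26) in inflammatory monocytes. In COX2i + 5-AZA against CTRL the same classes gave 0.27 and -1.29. In COX2i + 5-AZA against COX2i, Lipa was 0.75 in cDC1, with 60 and 79 cells, and -0.51 in inflammatory monocytes. Pnpla2 in COX2i + 5-AZA against CTRL was 0.36 in TAM_cycling and -0.27 in non-immune cells. With so many classes read for 6 genes, some intervals leave out equality by chance.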

How the results depend on the processing

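Of 218 alternative values of the 6 lipases' log2 ratios, 158 stayed within the counting interval, 52 moved beyond it and 8 turned direction, the last counted only where the counting interval of the reported ratio left out equality. Lipg in IRF3/7 against CTRL kept its direction throughout, at 10.52 without inflammatory monocytes, 7.49 over all cells and 2.54 with class shares fixed at those of CTRL; its other comparisons ranged from 1.21 to 2.37, 1.88 to 3.31 and 0.58 to 1.66. Lpl in IRF3/7 against CTRL turned from -0.89 to 0.17 in cells with more than 2000 genes, 1.17 without inflammatory monocytes, 2.85 with fixed class shares and 1.51 in macrophages alone, added after seeing the data. Lipa there turned to 0.18 without inflammatory monocytes and 0.55 with fixed class shares, Lipe in COX2i + 5-AZA against COX2i to -0.15 with fixed class shares, and Mgll in COX2i against CTRL to 0.54 over all cells. In IRF3/7 against CTRL the fixed class shares used only inflammatory monocytes, Monocyte_1 and TAM_cycling, the last with 20 IRF3/7 cells. Those 20 cells held 16 Lpl UMIs, 12 of them in 1 cell, and 29 Lipa UMIs. The lipid genes past 2-fold in IRF3/7 against CTRL went from 30 to 19 over all cells. Thinning to 1500 UMIs took the share of monocytes and macrophages with a Lipg UMI from 0.105%, 9.20%, 0.352% and 0.545% to 0.0133%, 5.70%, 0.0684% and 0.116%. Apart from what these settings change by construction (cells or classes left out, fewer UMIs), the cause was not tested. Each group was 1 library, so no replicate could be left out and differences between tumours cannot be told apart from those between groups. No paired analysis was possible because each group has 1 library and no replicate numbers to pair.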
